A study of Homo sapiens with 9 samples.

Results

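ZBTB genes encode transcription factors that carry a BTB (POZ) domain at one end and C2H2 zinc fingers at the other. They were taken from the deposited gene table as the protein-coding genes of chromosomes 1 to 22 whose symbol is ZBTB followed by a number and, in some, a letter. The table held 40 such genes among 57820 genes of all types, 20345 of them protein coding. Their RNA was followed in Chrom-seq, a proximity-labelling method in which a chromatin reader domain brings the peroxidase APEX2 to a histone mark, nearby RNA is tagged with biotin, and the tagged RNA is captured on streptavidin and sequenced. The question put to the genes was whether their RNA was captured more with a reader of trimethylated lysine 9 of histone H3 (H3K9me3), a mark of heterochromatin, than without one.

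All 9 libraries came from HEK293T, an established human embryonic kidney cell line, and all cells carried a single-chain antibody fused to APEX2 that binds GCN4 peptides. The 3 CBX1 libraries came from cells that also carried the chromodomain of CBX1 (HP1 beta) joined to GCN4 repeats. The 3 CBX1_W42A libraries carried the same reader with a tryptophan of the chromodomain changed to alanine, and the 3 Control libraries carried the vector with no reader. The labels of all 9 libraries, Control included, also hold the term NLS, which they do not explain. The CBX1_W42A libraries have record numbers apart from those of CBX1 and Control, which run on from each other. Neither the paper nor the labels say whether all were prepared together, so mutation and preparation cannot be told apart. At 48 h after transfection the cells were given 500 µM biotin-aniline for 30 min and then 1 mM H2O2 for 1 min, and poly(A)+ RNA was used for the libraries. The reader and the peroxidase were made from transfected plasmids, so their amount per cell was not controlled. The paper calls its replicates independent, but neither it nor the labels say whether the 3 libraries of a group came from separate cultures or transfections, so the p-values measure the spread between these libraries, which may be technical.

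The BTB domain forms dimers and, in many members, binds corepressors such as BCOR or the ubiquitin ligase subunit CUL3, while the zinc fingers bind DNA. Members are known for setting the fate of blood cells and other lineages, for binding methylated DNA and for acting at telomeres. They form a family apart from the ZNF genes with KRAB domains, whose clusters on chromosome 19 are covered by H3K9me3.

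The gene table does not show chromatin, but the positions of the genes set the ZBTB genes apart from those clusters. They lay on 14 chromosomes, 3 of them on chromosome 19. Of the 40, 34 had no gene named ZNF and a number within 500 kb. ZBTB45, at 59024897 to 59050278 of chromosome 19 (hg19), was the one with 5 or more such neighbours and had 13. Among 252 ZNF-number genes of chromosome 19, 225 had 5 or more, with a median of 15.5 neighbours. Of the 249 on other autosomes, 55 had 5 or more and 116 had none, with a median of 1. ZBTB genes spanned 2.39 to 809 kb, with a median of 26.3 kb, and the GC content of their annotated exons ran from 33.0% (ZBTB41) to 66.0% (ZBTB45).

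Promoter sequences are shown for 4 members that passed the test described below, ZBTB20 and ZBTB4, which were higher with CBX1, and ZBTB11 and ZBTB24, which were lower. Each is the 250 bases before a transcription start in RefSeq (GRCh38.p14), read 5′ to 3′ on the gene's own strand, which is the minus strand for all 4, with each CpG dinucleotide in capitals. They lie at chr3:115147289-115147538 (the most upstream of 8 entries for ZBTB20), chr17:7484250-7484499 (ZBTB4), chr3:101677133-101677382 (ZBTB11) and chr6:109483220-109483469 (ZBTB24).
ZBTB20: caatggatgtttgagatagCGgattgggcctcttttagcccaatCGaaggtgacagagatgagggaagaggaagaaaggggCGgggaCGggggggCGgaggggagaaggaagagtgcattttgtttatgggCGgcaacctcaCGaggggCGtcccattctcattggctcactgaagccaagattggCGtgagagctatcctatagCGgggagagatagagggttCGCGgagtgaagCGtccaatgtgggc
ZBTB4: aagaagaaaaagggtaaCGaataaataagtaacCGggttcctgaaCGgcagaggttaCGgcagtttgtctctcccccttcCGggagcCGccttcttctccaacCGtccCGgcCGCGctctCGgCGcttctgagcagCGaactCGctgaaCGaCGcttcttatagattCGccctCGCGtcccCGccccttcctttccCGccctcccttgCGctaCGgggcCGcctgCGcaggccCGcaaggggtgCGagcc
ZBTB11: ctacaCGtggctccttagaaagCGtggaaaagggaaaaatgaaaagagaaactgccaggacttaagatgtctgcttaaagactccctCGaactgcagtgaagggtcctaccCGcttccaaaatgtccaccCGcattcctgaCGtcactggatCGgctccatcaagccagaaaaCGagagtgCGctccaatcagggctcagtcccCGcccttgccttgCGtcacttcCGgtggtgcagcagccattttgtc
ZBTB24: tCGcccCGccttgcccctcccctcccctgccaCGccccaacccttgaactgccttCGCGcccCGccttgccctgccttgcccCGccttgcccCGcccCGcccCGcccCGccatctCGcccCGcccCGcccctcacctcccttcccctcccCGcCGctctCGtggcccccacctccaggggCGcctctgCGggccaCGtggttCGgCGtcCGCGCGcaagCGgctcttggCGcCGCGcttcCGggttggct
The ZBTB20 window held 13 CpG and that of ZBTB11 12, while 46.6% and 48.5% of the 35116 RefSeq promoters of this length held at least as many. The ZBTB4 window held 27 CpG, a number reached by 17.7% of promoters, and the ZBTB24 window 30, reached by 12.4%. The other 7 entries for ZBTB20 held 1 to 5 CpG. Among members lower with CBX1 that are not shown, the window of ZBTB21 held 36 CpG and the 3 of ZBTB7C 0 to 10. Of the 40 members, 34 matched an entry, with a median of 16 CpG over 67 entries beside 11 over all promoters.

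Libraries held 8379542 to 11082852 counts, and ZBTB genes took 0.129% to 0.145% of them, or 11694 to 14694 counts per library. Levels are given as CPM, the count of a gene relative to the library total after TMM scaling, on a scale shared by all 9 libraries. Summed over the 40 genes, the level was 1309 to 1339 CPM in CBX1, 1329 to 1412 CPM in CBX1_W42A and 1356 to 1441 CPM in Control, so that on this scale every CBX1 library lay below every Control library. As plain shares of the library total the groups overlapped, at 0.134% to 0.137% in CBX1 and 0.129% to 0.140% in Control. Counts of the human CBX1 gene did not mark the reader libraries, at 529 to 561 CPM in CBX1, 537 to 657 CPM in CBX1_W42A and 553 to 690 CPM in Control. The reader is a short chromodomain fragment made from a plasmid, named mCBX1 in the paper's abstract. Counts over the whole human gene may not show it, so they do not tell whether the reader was expressed.

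Detection differed widely among members. ZBTB40 was the highest in Control at 120 ± 5.63 CPM (SD, n = 3), and the median member stood at 25.8 CPM. Per kb of gene span, averaged over the 9 libraries, ZBTB48, a telomere-binding factor, led at 8.83 CPM per kb, followed by ZBTB18, a repressor in developing brain and muscle, at 8.24 and ZBTB6 at 7.68. ZBTB8B was at 0 counts in every library, which allows up to 0.105 CPM over the Control libraries for counting error. All of its span lies inside another gene on the same strand, where reads may be counted for neither gene, and for ZBTB8A 7.74% of the span was free. ZBTB32, a repressor of lymphocytes, had 0, 0 and 1 counts in Control, 3, 5 and 2 in CBX1, and 3, 3 and 5 in CBX1_W42A. Its summed counts were 10 with CBX1 and 1 in Control, a ratio of 10.4 with an exact 95% interval of 1.49 to 453 that covers counting error only. With CBX1_W42A the ratio was 10.6, with an interval of 1.54 to 456, from the same single Control count. Both genes fell under the filter of more than 18 counts over 6 libraries in the comparisons with Control, which left 38 members tested there.

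With CBX1 against Control, 1 of the 38 members was called higher and 0 were called lower, where a call needed an adjusted p under 0.05 and an absolute log2 fold change no smaller than 0.75. The shares over all 18837 genes tested were 7.06% higher and 0.34% lower, and over the protein-coding genes 4.76% were higher, beside 2.63% of the members, which is 1 gene. At an adjusted p under 0.05 with no minimum fold, 2 members were higher (ZBTB20 and ZBTB4) and 6 lower (ZBTB7C, ZBTB24, ZBTB11, ZBTB17, ZBTB40 and ZBTB21), or 5.26% and 15.8% beside 10.6% and 9.46% of all genes and 8.41% and 12.1% of the 14405 protein-coding genes tested. With upper-quartile factors or library size alone the split was 5 higher and 4 lower. At an unadjusted p under 0.05 there were 14 members (36.8%, beside 34.2% of all genes and 34.9% of protein-coding genes). For the calls and for adjusted p alone, DESeq2 gave the same counts as edgeR. All CBX1 libraries lay above all Control libraries for 5 members (13.2%, beside 18.9% of all genes) and below them for 11 (28.9%, beside 19% of all genes).

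ZBTB20, a repressor of the liver, muscle and hippocampus that silences alpha-fetoprotein, was the gene called. It spans 809 kb of the minus strand at 114056941 to 114866118 of chromosome 3 (hg19). Its level was 6.67, 6.14 and 6.002 CPM in the Control libraries, 11.5, 10.98 and 10.1 CPM with CBX1 and 8.23, 10.5 and 7.69 CPM with CBX1_W42A. Each reader library was above each Control library, and the CBX1 and CBX1_W42A libraries overlapped. The log2 fold change of CBX1 over Control was 0.80 (SE 0.18, adjusted p = 0.00480), and that of CBX1_W42A over Control was 0.49 (SE 0.21, adjusted p = 0.203). Between the readers the difference was 0.29 (SE 0.18, adjusted p = 0.465), so a difference between CBX1 and its mutant was not detected for ZBTB20.

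Counts cover whole gene spans, and for ZBTB20 they were thinly spread, at 0.0134 ± 0.000882 CPM per kb with CBX1 and 0.00775 ± 0.000431 in Control (SD, n = 3 each). As a measure of capture over genes silent in most tissues, 324 olfactory receptor genes with no same-strand overlap, 391 kb in all, held 43 counts with CBX1, 41 with CBX1_W42A and 20 in Control. That is 0.00396 ± 0.00137 CPM per kb with CBX1 and 0.00177 ± 0.00155 in Control (SD, n = 3 each). The CBX1 libraries exceeded Control by 0.00569 CPM per kb in ZBTB20, a ratio of 1.73, and by 0.00219 in the olfactory receptor genes, a ratio of 2.23. In the olfactory receptor genes all CBX1_W42A libraries, at 0.00324 to 0.00377 CPM per kb, lay above all Control libraries, the highest of which was at 0.00285. The CBX1 and Control libraries overlapped, and 1 Control library was at 0. Without it, replicate 3, the olfactory difference was 0.0013 and the ratio 1.49, and ZBTB20 had a ratio of 1.70. Among protein-coding genes over 500 kb, 15 of 262 tested were called higher, or 5.73% beside 4.76% of all protein-coding genes. The part of such low-level reads in the ZBTB20 result was not tested, and the gene counts do not separate its exons from its introns. ZBTB7C, a relative of ZBTB7A with a span of 384 kb, went the other way, from 0.0272 CPM per kb in Control to 0.0163 with CBX1.

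**Figure D1:**
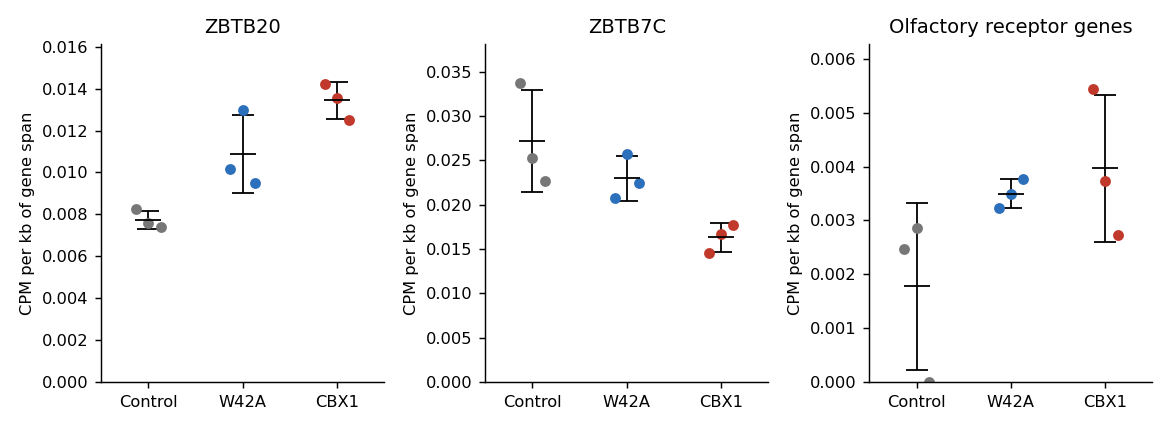
Level per kb of gene span (CPM per kb) in each library for ZBTB20, ZBTB7C and the sum of 324 olfactory receptor genes; points are libraries, and horizontal marks and bars are the mean and SD of 3. ZBTB20 is higher in every reader library than in Control, ZBTB7C is lowest in the CBX1 libraries, and the olfactory receptor genes stay under 0.006 CPM per kb, with 1 Control library at 0.

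ZBTB4, which binds methylated CpG, was the other gene higher with CBX1. Its level was 32.7, 35.4 and 44.2 CPM in Control, 49.1, 57.4 and 49.6 CPM with CBX1 and 40.4, 37.2 and 47.1 CPM with CBX1_W42A. The CBX1 libraries lay above all others, while CBX1_W42A and Control overlapped. It was higher by 0.49 on the log2 scale over Control (SE 0.12, adjusted p = 0.00922) and 0.30 over CBX1_W42A (SE 0.12, adjusted p = 0.188).

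Of the members lower with CBX1, ZBTB24 is needed for DNA methylation at pericentromeric repeats and is mutated in an immunodeficiency syndrome. It was at 44.4, 45.4 and 44.8 CPM in Control, 29.4, 23.5 and 33.9 CPM with CBX1 and 38.1, 38.5 and 36.3 CPM with CBX1_W42A. The 3 groups did not overlap, with CBX1 lowest and CBX1_W42A between. The log2 fold change of CBX1_W42A against Control, -0.25 (SE 0.11, adjusted p = 0.231), did not pass. That of CBX1 against Control was -0.62 (SE 0.13, adjusted p = 0.00300), and the difference between the readers, -0.39 (SE 0.13, adjusted p = 0.123), did not pass in this fit. ZBTB24 had the smallest p of all members in that comparison, with an unadjusted p of 0.00693.

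ZBTB17 (MIZ1), the partner through which MYC represses genes, was at 99.3, 94.1 and 87.1 CPM in Control, 65.0, 75.2 and 63.4 CPM with CBX1 and 77.8, 84.7 and 79.2 CPM with CBX1_W42A. As for ZBTB24, the groups were in separate ranges and CBX1 was lowest. The log2 fold change of CBX1 was -0.45 against Control (SE 0.10, adjusted p = 0.00457) and -0.27 against CBX1_W42A (SE 0.11, adjusted p = 0.202). That of CBX1_W42A against Control, -0.21 (SE 0.11, adjusted p = 0.277), did not pass. ZBTB11, a factor of blood cell development, was at 90.9, 84.0 and 88.4 CPM in Control, 66.3, 63.3 and 60.8 CPM with CBX1 and 67.9, 76.1 and 61.2 CPM with CBX1_W42A. Both readers gave levels below all Control libraries and overlapped each other. The log2 fold change was -0.46 with CBX1 (SE 0.09, adjusted p = 0.00276) and -0.36 with CBX1_W42A (SE 0.11, adjusted p = 0.0867). ZBTB11-AS1, an antisense gene at its start with 33 to 47 counts per library, had a log2 fold change of -0.05 with CBX1 (adjusted p = 0.913).

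ZBTB7C was at 12.9, 9.72 and 8.70 CPM in Control, 5.60, 6.39 and 6.81 CPM with CBX1 and 7.96, 9.87 and 8.64 CPM with CBX1_W42A. The CBX1 libraries were below all others. Against Control its log2 fold change was -0.73 (SE 0.20, adjusted p = 0.0159), just short of the fold limit for a call. Without the Control library of replicate 1, the highest of the 9, it was -0.55 (adjusted p = 0.0941). Without the CBX1 library of replicate 1 it was -0.66 (adjusted p = 0.0634).

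ZBTB40 was at 114, 122 and 125 CPM in Control, 103, 94.5 and 88.2 CPM with CBX1 and 90.8, 91.3 and 89.6 CPM with CBX1_W42A. Both readers were below all Control libraries, and ZBTB40 was the single member past adjusted p with CBX1_W42A. The log2 fold change was -0.33 with CBX1 (SE 0.09, adjusted p = 0.0212) and -0.41 with CBX1_W42A (SE 0.10, adjusted p = 0.0414), and between the readers it was 0.05 (adjusted p = 0.854). With CBX1, ZBTB40 no longer passed adjusted p without CBX1 replicate 2 (-0.32, adjusted p = 0.0551) or 3 (-0.27, adjusted p = 0.116) or without Control replicate 3 (-0.30, adjusted p = 0.0761). With CBX1_W42A it no longer passed when any 1 of the 6 libraries was left out, with adjusted p from 0.0656 to 0.135. ZBTB21 was at 103, 108 and 104 CPM in Control, 83.1, 89.3 and 83.3 CPM with CBX1 and 87.5, 109 and 84.9 CPM with CBX1_W42A. Its log2 fold change of -0.29 (SE 0.09, adjusted p = 0.0312) was the smallest of those that passed. It held without CBX1 replicate 2, and was lost without any other single library, with adjusted p from 0.0525 to 0.115. Both ZBTB40 and ZBTB21 also missed the threshold with CBX1 when upper-quartile factors or library size alone replaced TMM.

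**Figure D2:**
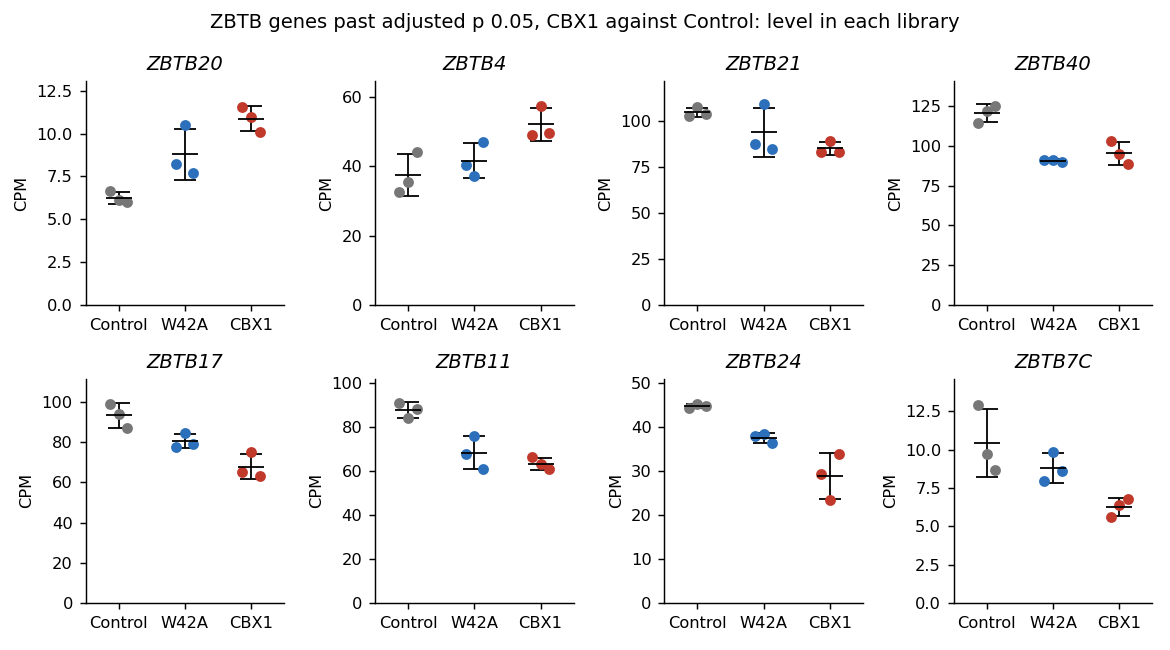
Level in CPM in each library of the 8 ZBTB genes with an adjusted p under 0.05 for CBX1 against Control; points are libraries, horizontal marks and bars are the mean and SD of 3, and W42A stands for CBX1_W42A. ZBTB20 and ZBTB4 are higher with CBX1 than in Control and the other 6 lower. For ZBTB24 and ZBTB17 the CBX1_W42A libraries fall between the other groups, though neither gene passed with CBX1_W42A against Control.

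Among the members listed for roles in cell lineages, 8 were tested (ZBTB1, ZBTB7A, ZBTB7B, ZBTB16, ZBTB17, ZBTB18, ZBTB20 and ZBTB46). The list was chosen with earlier results of these data known, so its values are a description. With CBX1 1 of the 8 rose and 1 fell, beside 10.6% and 9.46% of all genes. Values above 0 were found for 7 of the 8, beside 19 of all 38 members and 52.9% of all genes, the median log2 fold change being 0.25 beside 0.027 over all genes tested. ZBTB11, which also acts in blood cell development but was not on this list, fell. With CBX1_W42A, against the same Control libraries, 0 of the 8 passed, beside 1.37% of all genes higher and 1.25% lower. The median of the 8 was 0.23. ZBTB7A (LRF), a regulator of B and red cell fates and of fetal globin, was at 38.8, 24.6 and 36.6 CPM in Control and 39.8, 46.5 and 40.7 CPM with CBX1. ZBTB7B (ThPOK), which directs T cells to the CD4 fate, ran from 42.9 to 60.9 CPM in Control and from 55.4 to 79.6 CPM with CBX1, which overlap. ZBTB46, a marker of dendritic cells, was at 22.1, 18.99 and 24.99 CPM in Control, 26.0, 29.0 and 28.1 CPM with CBX1 and 24.6, 30.5 and 31.4 CPM with CBX1_W42A. The log2 fold changes with CBX1 were 0.35 for ZBTB7A (adjusted p = 0.0859), 0.37 for ZBTB7B (adjusted p = 0.0723) and 0.34 for ZBTB46 (adjusted p = 0.0651), none of which passed. ZBTB16 (PLZF), which maintains spermatogonial stem cells and natural killer T cells, was low, at 4.15 to 6.49 CPM in Control and 4.47 to 7.29 CPM with CBX1, with a log2 fold change of 0.15 (SE 0.25, adjusted p = 0.700). ZBTB18, at 0.08 (adjusted p = 0.651), and ZBTB1, a factor of lymphocyte development, at 0.02 (adjusted p = 0.890), were near 0.

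In the group that binds methylated DNA or acts in its methylation, ZBTB4 rose, ZBTB24 fell and ZBTB38 passed in neither direction. ZBTB38 was at 26.2, 32.1 and 24.4 CPM in Control and 21.0, 28.4 and 31.2 CPM with CBX1, with a log2 fold change of -0.02 (SE 0.15, adjusted p = 0.929). The telomere genes ZBTB10 and ZBTB48 both missed the test. ZBTB48 (TZAP), at 90.3, 92.6 and 88.8 CPM in Control and 70.4, 82.2 and 74.3 CPM with CBX1, had ranges that did not overlap and a log2 fold change of -0.25 (SE 0.09, adjusted p = 0.0665). ZBTB10, at 77.3, 62.9 and 73.9 CPM in Control and 63.0, 70.4 and 69.7 CPM with CBX1, had one of -0.07 (SE 0.10, adjusted p = 0.683).

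Outside the 3 role lists 25 members were tested with CBX1 against Control, of which 0 rose and 4 fell (ZBTB7C, ZBTB11, ZBTB40 and ZBTB21). Of all genes 10.6% rose and 9.46% fell, and of protein-coding genes 8.41% and 12.1%. The median log2 fold change of the 25 members was -0.07. Over all 38 members, 34 had an absolute log2 fold change under 0.5. The SE of a member ran from 0.09 to 0.59, with a median of 0.13, and was largest for ZBTB22, at 0.56 to 0.61 CPM in Control. ZBTB6 was at 48.0, 38.9 and 38.2 CPM in Control, 37.4, 36.9 and 38.0 CPM with CBX1 and 42.7, 42.6 and 42.1 CPM with CBX1_W42A, and its log2 fold change with CBX1 was -0.15 (adjusted p = 0.368).

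**Figure D3:**
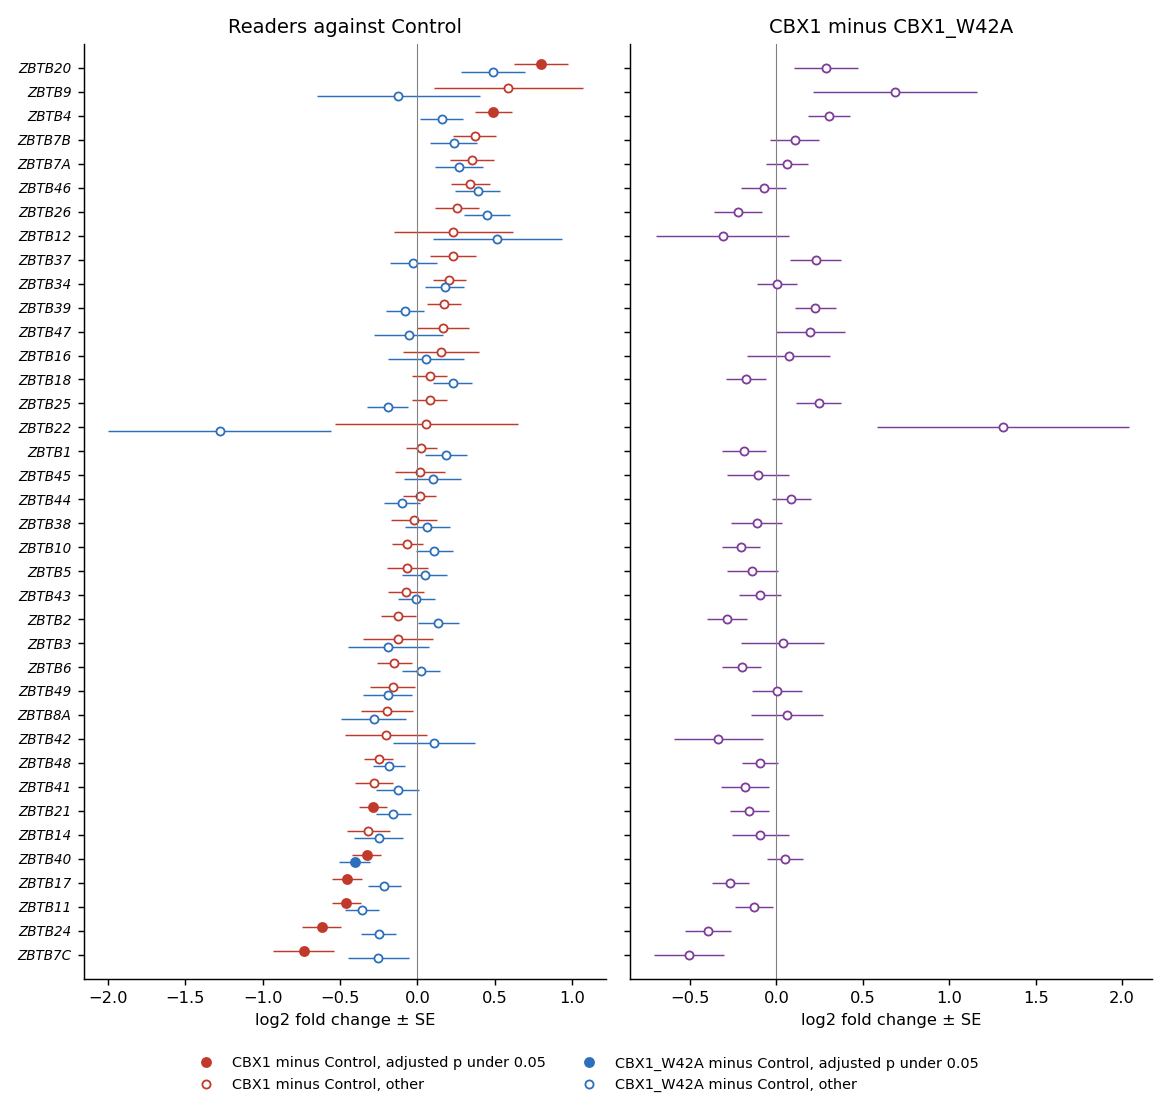
Log2 fold change with its SE for the 38 ZBTB genes tested against Control, ordered by the value for CBX1; the left panel shows CBX1 (red) and CBX1_W42A (blue) against the same 3 Control libraries, filled where the adjusted p is under 0.05, and the right panel shows CBX1 against CBX1_W42A. With CBX1 2 genes are filled at positive values and 6 at negative values, with CBX1_W42A 1 gene (ZBTB40) is filled, and the widest bars belong to the low-count genes ZBTB22, ZBTB9 and ZBTB12.

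With CBX1_W42A against Control, 0 of 38 members were called in either direction, beside 0.974% of 18680 genes higher and 0.0214% lower. At an adjusted p alone 0 were higher and 1 lower (ZBTB40), beside 1.37% and 1.25% of all genes. DESeq2 gave the same counts, and 6 members had an unadjusted p under 0.05 (15.8%, beside 19.3% of all genes and 19.6% of protein-coding genes). These included ZBTB26, at 17.5, 14.2 and 14.9 CPM in Control and 21.0, 21.6 and 21.2 CPM with CBX1_W42A, whose ranges did not overlap and whose log2 fold change was 0.45 (SE 0.15, adjusted p = 0.0981). ZBTB46 had one of 0.39 (SE 0.15, adjusted p = 0.148). Over members the median was -0.017, beside 0.012 over all genes.

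With CBX1 against CBX1_W42A, the readers differ by the tryptophan, but the libraries may also differ in preparation. In this comparison 0 of 39 members passed under either rule by edgeR or by DESeq2. The shares over all 19360 genes were 0.795% higher and 0.201% lower with the fold limit, and 1.32% higher and 0.925% lower without it. An unadjusted p under 0.05 was reached by 5 members, or 12.8%, beside 16.6% of all genes and 17.8% of protein-coding genes. They were ZBTB24, ZBTB4, ZBTB7C, ZBTB17 and ZBTB2, of which ZBTB4 was higher with CBX1 and the others lower. ZBTB7C had a log2 fold change of -0.51 (SE 0.20, adjusted p = 0.195). ZBTB2 was at 54.7, 53.4 and 51.7 CPM with CBX1 and 58.4, 73.7 and 60.3 CPM with CBX1_W42A, which did not overlap, and its log2 fold change was -0.29 (SE 0.11, adjusted p = 0.196). An effect of the mutation on a single ZBTB gene was thus not detected with 3 libraries a group. The median over members was -0.093, beside -0.0038 over all genes, and it was -0.020 without the CBX1_W42A library of replicate 2.

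Set beside other zinc finger genes in the same fits, ZBTB genes had a median near that of all genes with CBX1 against Control. The quartiles there were -0.20 and 0.44 over all genes, and -0.23 and 0.23 over protein-coding genes. The median log2 fold change of CBX1 over Control was -0.0051 for ZBTB genes, with quartiles of -0.20 and 0.20, and took the other sign with upper-quartile factors (0.078) and library size alone (0.084), which moved the median of all genes from 0.027 to 0.110 and 0.116. It was 0.41 for the 187 ZNF-number genes of chromosome 19 that were tested, of which 36 were called higher (19.3%), and 0.055 for the 214 on other autosomes, of which 10 were (4.67%). Of the members, 19 had a positive and 19 a negative value, while 161 of the 187 genes of chromosome 19 had a positive one. With CBX1 against CBX1_W42A the medians were -0.093 for ZBTB genes, 0.38 for ZNF-number genes of chromosome 19, with 22 of 189 called higher, and 0.052 for those elsewhere, with 6 of 216. The members on chromosome 19 that could be tested against Control were ZBTB7A, above, and ZBTB45. ZBTB45, the member with 13 ZNF neighbours, was at 13.04, 11.1 and 11.5 CPM in Control and 10.3, 12.0 and 13.5 CPM with CBX1, ranges that overlap, and its log2 fold change was 0.02 (SE 0.16, adjusted p = 0.954).

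**Figure D4:**
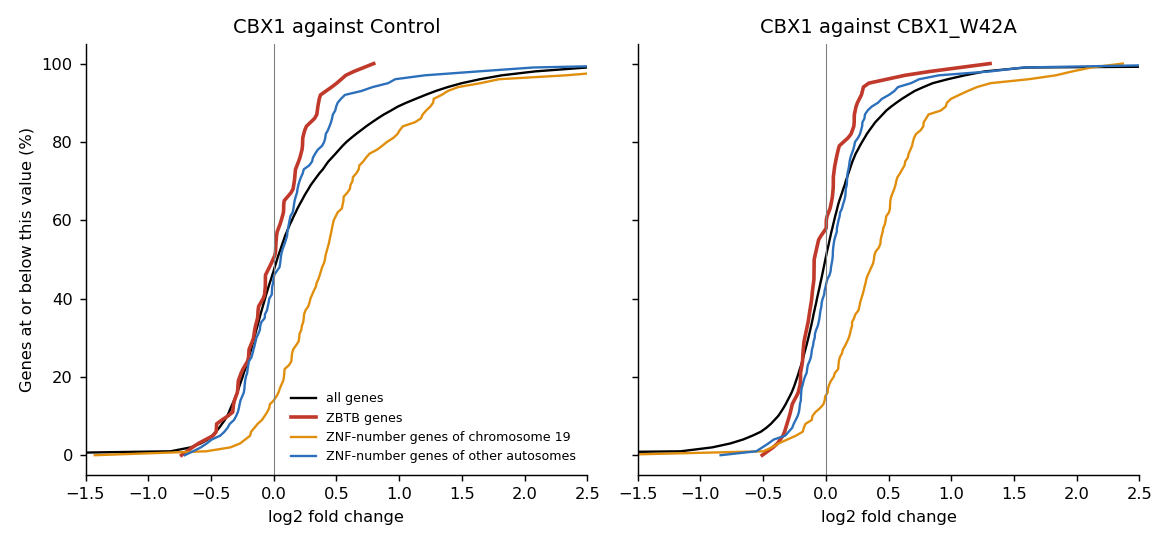
Cumulative distribution of log2 fold changes for ZBTB genes, ZNF-number genes of chromosome 19, ZNF-number genes of other autosomes and all genes tested, with CBX1 against Control on the left and against CBX1_W42A on the right; the horizontal axis is limited to -1.5 to 2.5. The ZBTB curve crosses 50% near 0 in both panels (medians -0.0051 and -0.093), while that of chromosome 19 crosses at 0.41 and 0.38.

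Among 9 other BTB or POZ zinc finger genes (BCL6, BCL6B, HIC1, HIC2, PATZ1, GZF1, MYNN, ZNF131 and ZBTB33 on the X chromosome), 1 rose and 1 fell with CBX1, beside 10.6% and 9.46% of all genes. BCL6, the germinal centre repressor, had a log2 fold change of 0.45 (adjusted p = 0.0401). It did not pass by DESeq2 (adjusted p = 0.0685), nor without CBX1 replicate 1 or 3 or any 1 Control library (adjusted p from 0.0613 to 0.196). ZBTB33 (Kaiso), which binds methylated DNA, had one of -0.60 (adjusted p = 0.00238). With CBX1_W42A against Control 0 of these 9 genes passed, beside 1.37% of all genes higher and 1.25% lower. Between the readers 0 passed, beside 1.32% higher and 0.925% lower.

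Base composition moved with the spread between libraries of 1 group. Over the 38 members, the deviation of a library's log2(CPM + 0.5) from its group mean was correlated with exon GC content at r = 0.59 in CBX1_W42A replicate 3 and -0.52 in replicate 2, and between -0.38 and 0.35 in the other 7 libraries. The members are not independent points, since they share each library. Of the 11 members with an exon GC over 55%, 7 were lowest in replicate 2 of the Control libraries, among them ZBTB47 with 30.2, 17.7 and 24.5 CPM, as were 11 of the other 27. By exon GC, 8 of 11 members over 55% had a positive log2 fold change of CBX1 over Control (median 0.17), 3 of 8 between 45% and 55% (median -0.10) and 8 of 19 under 45% (median -0.07), with no steady order. Over the 38 members exon GC and the log2 fold change were weakly correlated, at r = 0.15 and rho = 0.16. The part of base composition in these results was not tested.

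**Figure D5:**
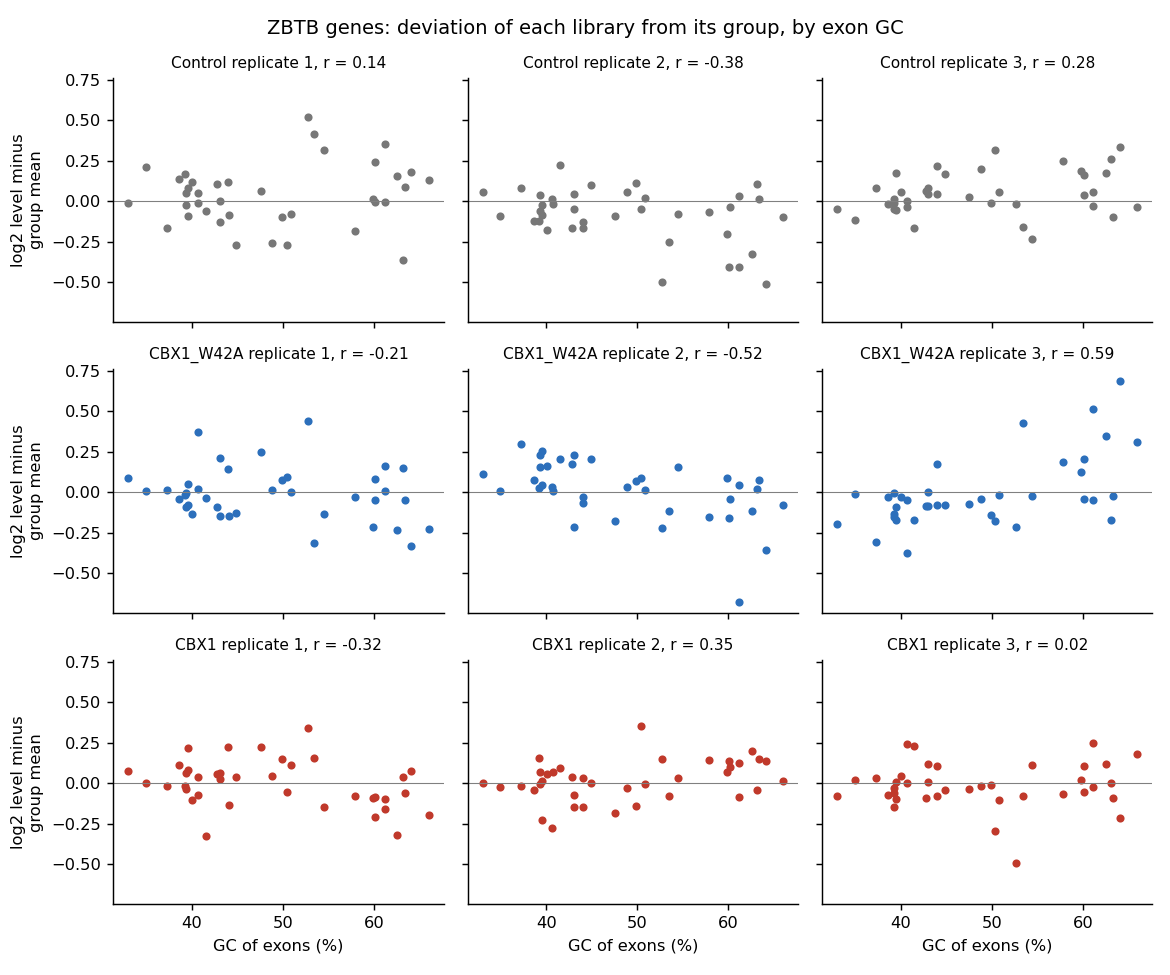
Deviation of each library from its group mean, in log2(CPM + 0.5), against the GC content of annotated exons for the 38 ZBTB genes tested against Control; rows are groups, columns replicates, and r is Pearson's correlation over genes. The slope is positive in CBX1_W42A replicate 3 (r = 0.59) and negative in replicate 2 (r = -0.52), and weaker in the rest.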

How the data were processed

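The authors deposited whole-number counts per gene for 9 Chrom-seq libraries. Their methods name fastp (version 0.23.1), HISAT2 (version 2.1.0) on hg19 and featureCounts (version 2.0.1) with GENCODE annotation; they summarised reads as forward-stranded in QualiMap, while the strand setting of the counting and any removal of duplicates were not given in the sources used here. Listed lengths equal gene spans. ZBTB8B and ZBTB40-IT1, each with all of its span inside another gene of the same strand, were at 0 counts. Whether reads shared by such genes went to neither was not tested. All 9 columns of counts were read, with 0 columns not used.

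Tests were run with edgeR (version 4.0.16, R version 4.3.3): TMM factors and the quasi-likelihood test on the 6 libraries of a pair of groups, for genes with more than 18 counts in all, with Benjamini-Hochberg adjustment over all genes tested. DESeq2 (version 1.42.0), other scalings, filters and left-out libraries were alternatives, and Python (version 3.11.15) made the summaries. The scripts were tested on simulated data. The SE is the absolute log2 fold change divided by the square root of F. Exon GC came from GENCODE exons on GRCh37.

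Named were members of role lists, those past adjusted p and fold, the 5 smallest p per comparison, the 3 highest per kb and any at 0 counts. ZBTB21, ZBTB47, ZBTB45, ZBTB22, ZBTB9, ZBTB12, ZBTB41 and ZBTB8A, the olfactory receptor genes, the long genes and the GC check were added after values were seen. Members and lists were chosen with earlier results of these data known. A list of partner genes is not reported here.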

Additional observations from a re-analysis of the deposited data

Results flagged for a closer look

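ZBTB20-AS4, a noncoding gene on the strand opposite to ZBTB20 that was too low to be tested, had a few counts in reader libraries and 0 in all 3 Control libraries, with no test. Its counts summed to 4 in the CBX1 libraries (2, 0 and 2) and to 8 in the CBX1_W42A libraries (6, 0 and 2), of which a single library held 6, and replicate 2 was at 0 in both reader groups. ZBTB20-AS1 had 2 counts in all, and ZBTB20-AS2, ZBTB20-AS3 and ZBTB40-IT1 had 0. No member differed between CBX1 and CBX1_W42A past the adjusted p in the fit without a replicate block, and groups of 3 were not examined for outlying libraries.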

How the results depend on the processing

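Of the 8 members past adjusted p with CBX1 against Control, ZBTB20, ZBTB4, ZBTB24, ZBTB11 and ZBTB17 passed in all 14 alternatives, ZBTB7C in 12, ZBTB40 in 8 and ZBTB21 in 6, and none of the 8 changed sign. The count called lower went from 0 to 1 (ZBTB7C) with all 9 libraries in one fit and ran from 0 to 1 with a library left out, and the count called higher went from 1 to 0 at a minimum log2 fold change of 1. The number higher at adjusted p alone went from 2 to 5 with upper-quartile factors or library size alone, when ZBTB7A, ZBTB7B and ZBTB46 joined, and to 4 with no filter on low counts. The number lower was 4 with upper-quartile factors, library size alone or the replicate block, and 4 to 5 with a library left out. These 2 scalings moved the median of members from -0.0051 to 0.078 and 0.084 with CBX1, and from -0.017 to 0.070 and 0.056 with CBX1_W42A. They also took the CBX1_W42A count lower at adjusted p from 1 to 0, and it was 0 whichever library was left out. Between the readers, the replicate block gave 1 lower member (ZBTB24, -0.41, adjusted p = 0.0492) in place of 0, and the median ran from -0.108 to -0.020 with a library left out. Same-numbered libraries had correlations of deviations from -0.08 to 0.08, none over 0.1, so the numbers were not read as pairs. Between CBX1 and CBX1_W42A each library correlated best with its own number (0.041 to 0.060), a hint from the data and not the design. Against Control this held for CBX1 replicate 3 and CBX1_W42A replicates 2 and 3, and not for the other reader libraries. The block also left ZBTB40 (adjusted p = 0.0621), ZBTB21 (0.0811) and BCL6 (0.0741) short of the threshold with CBX1. The cause of these changes was not tested. With 3 libraries a group and SEs of 0.09 to 0.59, small changes of low genes were not detectable at this depth.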
